A study of Mus musculus with 12 samples.

Results

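The response of mouse neural progenitor cells to thyroid hormone after 24 h was followed in the 4 libraries of that time, 2 lines with and without hormone, of 12 in all. C17.2 is an immortal neural progenitor line from mouse. C17.2a carried a stably expressed, tagged thyroid hormone receptor alpha and C17.2b the tagged receptor beta, so no library came from cells without an added receptor. Cells of every group were kept without serum for 24 h, after which T3, the active form of the hormone (triiodothyronine), was added at 1e-07 M or omitted, for 6, 12 or 24 h, a design meant to follow targets of the hormone in time. The labels do not say whether a line was 1 clone or a pool. Each group had 1 library, so a 24 h ratio has no replicate within its line, and the 2 lines are the only repeats of the late response.

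Genes were sorted by the ratio of T3 to untreated RPM (tag counts scaled to the same total in every library) in each 24 h pair, after a prior of 2 tags was added to both libraries. Of 12774 gene symbols, 8949 had at least 50 tags in each of the 2 pairs and could be sorted. Past 2-fold in the same direction in both lines were 196 genes, 120 higher and 76 lower with T3. Past 2-fold in C17.2a and under 2-fold in C17.2b were 2015 genes, 446 higher and 1569 lower, and the reverse held for 316 genes, 234 higher and 82 lower. A further 72 genes passed 2-fold in opposite directions and 6350 passed in neither line. These counts describe the sorting and carry no test.

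Thyroid hormone enters cells through transporters and binds receptors that sit on DNA, usually paired with a retinoid X receptor. Without hormone the receptors recruit corepressors, and with hormone they recruit coactivators, so many direct targets rise within hours. In the developing brain the hormone helps progenitors to leave the cell cycle and mature, and in many tissues it raises lipid and glucose metabolism. A response at 24 h can hold direct targets that stayed high together with genes that follow from their products.

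The symbols of the receptors did not tell the lines apart. Thra was listed at 5 and 0.12 RPM in C17.2a at 24 h (untreated, then T3) and at 5.83 and 4.63 RPM in C17.2b (the 0.12 RPM is below what 3 tags give), and Thrb between 1.22 and 1.79 RPM in the 4 libraries. Whether tags from the added receptors would be counted under these symbols is not given in the sources used here. Progenitor markers were present: Nes (nestin) had 193 to 642 RPM and Sox2 62.0 to 150 RPM over the 4 libraries, while the glial progenitor marker Slc1a3 was at most 0.41 RPM. Of 25 listed neuron markers 15 were measured and 6 had enough tags. The 15 had summed levels of 341 and 166 RPM in C17.2a (untreated, then T3) and 491 and 777 RPM in C17.2b. In C17.2b Tubb3 went from 312 to 576 RPM and Ncam1 from 42.3 to 116 RPM. The 6 had median log2 ratios of -1.31 in C17.2a and -0.33 in C17.2b, and 2 were past 2-fold lower in both lines (0.849% of all sortable genes). At 6 and 12 h 5 of 9 tested fell and none rose in limma, against 5.56% and 7.89% of all genes. Tubb3 (beta III tubulin) had 77.7 to 576 RPM, and the synaptic marker Syp, without enough tags, was at most 1.94 RPM. Col1a1, a fibroblast collagen, had 1740 to 5353 RPM. None of 21 myeloid markers had enough tags, but S100a9 had 73.7 RPM in untreated C17.2a, 5.49 RPM in C17.2a with T3 and at most 0.27 RPM in both C17.2b libraries of that time, and its part in the C17.2a ratios was not tested.

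The 24 h libraries held 7.12e+06 to 9.79e+06 tags as implied by the smallest step of their values, and all 12 libraries 7.12e+06 to 1.91e+07. A gene with 50 tags in a pair, split 33 to 17, has a ratio of 1.94 with a 95% exact binomial interval of 1.05 to 3.72, and with 1000 tags the interval runs from 1.75 to 2.29. These intervals cover counting error only. The C17.2a pair stood apart at this depth. Of the 8949 genes, 25.5% passed 2-fold in the C17.2a 24 h pair (573 higher or 6.40%, 1710 lower or 19.1%) and 6.53% in the C17.2b 24 h pair (419 higher or 4.68%, 165 lower or 1.84%). At 6 and 12 h the shares were 3.78% and 3.74% in C17.2a and 5.13% and 4.93% in C17.2b, of the genes with enough tags there. Across these genes the 2 lines' log2 ratios had a Pearson r of 0.12 and a Spearman rho of 0.03 at 24 h, and 0.60 and 0.45 at 12 h. Genes are not independent replicates, so these are descriptions.

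**Figure D1:**
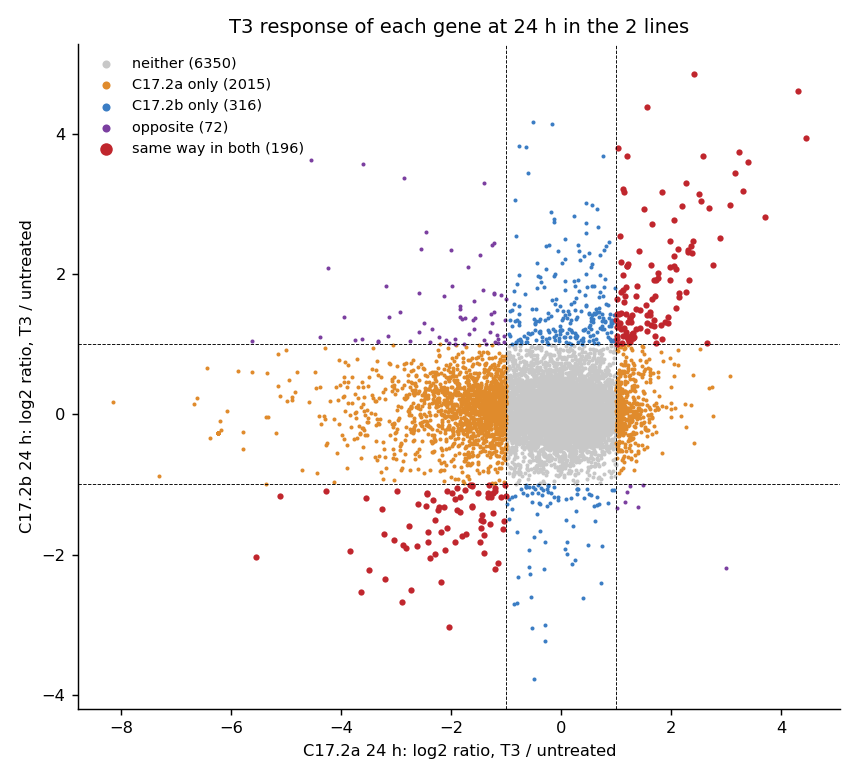
Log2 ratio of T3 to untreated in C17.2a (horizontal axis) and C17.2b (vertical axis) at 24 h, 1 point per gene (8949 genes), coloured by class with the number of genes in the key, dashed lines at 2-fold. The cloud is wider along the C17.2a axis, mostly to the left, and the 196 genes that moved the same way lie in 2 opposite corners.

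Epas1, the hypoxia-inducible transcription factor HIF-2 alpha, had 8.47 RPM untreated and 172 RPM with T3 in C17.2a and 7.73 and 193 RPM in C17.2b, ratios of 19.9 and 24.5. Both T3 libraries lay far above both untreated ones. Cxcr7 (Ackr3, a scavenging chemokine receptor) went from 7.55 to 169 RPM in C17.2a and from 6.78 to 107 RPM in C17.2b. Hr, a corepressor and a classical T3 target in brain, went from 4.29 to 47.0 RPM and from 9.36 to 115 RPM. Kcna1, a voltage-gated potassium channel, went from 14.0 to 133 RPM and from 24.4 to 330 RPM. In each of these 4 genes the groups did not overlap at 24 h, which sorting by the same 24 h ratios makes likely. Each also rose at 6 and 12 h, libraries that the sorting did not use. There the log2 fold changes were 4.05 ± 0.13 (SE) for Epas1, 2.87 ± 0.20 for Cxcr7, 3.65 ± 0.12 for Hr and 3.56 ± 0.15 for Kcna1, with limma adjusted p of 2e-08, 6.97e-06, 2e-08 and 1.63e-07 over 4 pairs.

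Some of these genes had log2 ratios at 6 h close to those at 24 h, and others had larger ones at 24 h. Epas1 had log2 ratios of 3.98, 4.33 and 4.32 at 6, 12 and 24 h in C17.2a and of 4.55, 4.63 and 4.61 in C17.2b. Slc43a2, an amino acid transporter of the system L type, had 2.90, 2.80 and 2.54 in C17.2a and 3.47, 3.54 and 3.05 in C17.2b. These were flat profiles. Car9, a carbonic anhydrase known as a hypoxia target, had 0.58, 1.53 and 3.15 in C17.2a and 0.58, 2.67 and 3.44 in C17.2b. F3, tissue factor, had 1.85, 2.14 and 3.08 in C17.2a and 1.33, 1.98 and 2.99 in C17.2b. Both were highest at 24 h in both lines, and so was the proprotein convertase gene Pcsk6 (2.89 and 2.52 at 24 h). The difference of 24 h from the earlier times did not pass for Car9 or F3 (limma adjusted p = 0.50 for both). Arrdc3, an arrestin-domain protein, reached 3.71 and 2.82 at 24 h. Phospho1, a phosphatase of bone mineralization, had 2.57 and 3.68. All 10 of the highest genes given here had passed at 6 and 12 h in limma, with adjusted p between 2e-08 and 0.00743.

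**Figure D2:**
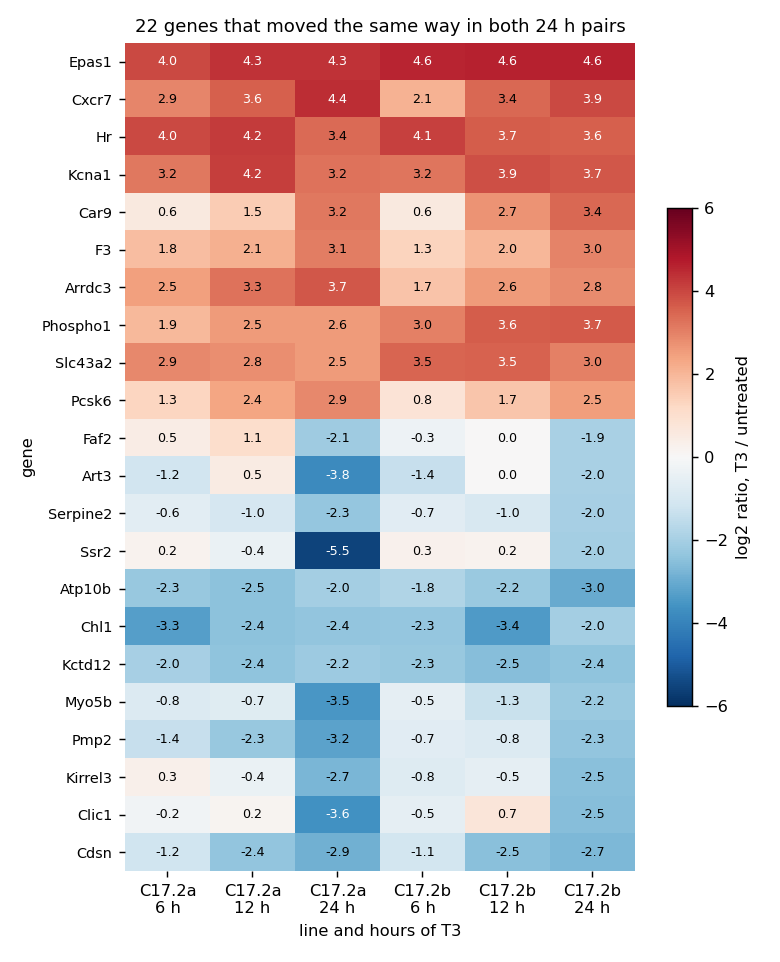
Log2 ratio of T3 to untreated for 10 of the 12 highest and the 12 lowest genes in both 24 h pairs (rows), in each line and time (columns), red higher and blue lower with T3. Epas1, Hr, Kcna1 and Slc43a2 are red at every time, Car9 and F3 deepen by 24 h, and Clic1, Ssr2, Kirrel3 and Faf2 are blue at 24 h and pale before.

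Genes of the hypoxia response were among those higher at 24 h. HIF transcription factors bind the motif ACGTG in DNA and raise genes for glycolysis, angiogenesis and mitochondrial turnover when oxygen is low. Of 36 listed genes 33 had enough tags, of which 9 passed 2-fold upward in both lines, against a share of 1.34% of all 8949 genes. A further 11 passed upward in C17.2b alone (2.61% of all genes) and 2 in C17.2a alone (4.98%), and none passed 2-fold downward in either line. The median log2 ratio of the 33 was 0.79 in C17.2a and 1.26 in C17.2b, with medians of -0.07 and 0.06 over all genes. At 6 and 12 h 23 of the 33 rose and 2 fell in limma, against 7.89% and 5.56% of all genes tested. The 9 were Epas1, Ankrd37, Bnip3, Car9, Ero1l, Fam162a, Higd1a, Pfkfb3 and Slc2a1.

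All 9 but Epas1 had a promoter window in the table used, and each of these 8 held the motif ACGTG. Windows of 4 are shown because the genes moved together and carry the motif, drawn in capitals on either strand (CACGT on the other strand; CACGTG holds it on both). The windows are from RefSeq on GRCm38.p6, span 300 bases around an annotated start, and are written 5′ to 3′ on the gene's strand.
Ankrd37, minus strand, chr8:45999801-46000100: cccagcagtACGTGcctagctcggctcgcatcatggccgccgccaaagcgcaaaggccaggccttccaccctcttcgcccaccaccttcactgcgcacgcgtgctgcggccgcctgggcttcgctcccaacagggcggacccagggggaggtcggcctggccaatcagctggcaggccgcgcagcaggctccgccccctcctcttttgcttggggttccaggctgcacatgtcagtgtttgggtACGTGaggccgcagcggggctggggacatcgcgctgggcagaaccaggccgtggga
Bnip3, minus strand, chr7:138909457-138909756: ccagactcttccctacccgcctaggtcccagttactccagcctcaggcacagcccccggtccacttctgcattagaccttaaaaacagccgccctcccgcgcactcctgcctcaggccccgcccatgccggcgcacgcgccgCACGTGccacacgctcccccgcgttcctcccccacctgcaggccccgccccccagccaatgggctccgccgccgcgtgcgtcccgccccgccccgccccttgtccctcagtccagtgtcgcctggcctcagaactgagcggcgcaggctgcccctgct
Car9, plus strand, chr4:43506776-43507075: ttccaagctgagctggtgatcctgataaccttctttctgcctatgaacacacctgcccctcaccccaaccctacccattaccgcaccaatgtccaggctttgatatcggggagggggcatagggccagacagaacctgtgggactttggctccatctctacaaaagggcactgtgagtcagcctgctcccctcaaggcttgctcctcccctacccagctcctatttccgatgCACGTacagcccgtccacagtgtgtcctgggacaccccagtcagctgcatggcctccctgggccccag
Fam162a, minus strand, chr16:36071512-36071811: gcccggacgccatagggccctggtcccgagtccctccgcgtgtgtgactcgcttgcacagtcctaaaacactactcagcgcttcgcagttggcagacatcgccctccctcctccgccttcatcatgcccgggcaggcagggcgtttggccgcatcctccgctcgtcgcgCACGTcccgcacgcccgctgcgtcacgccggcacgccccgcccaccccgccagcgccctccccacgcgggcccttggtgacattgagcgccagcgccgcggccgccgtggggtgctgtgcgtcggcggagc

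The motif was common. Of the 120 genes higher in both lines, 91 had a window in the table, and 30.0% of their 120 windows held ACGTG on either strand, against 26.2% of the windows of all genes that could be sorted and 19.6% of the 32851 windows of all genes. For the 76 genes lower in both lines the share was 16.0% of 94 windows. The receptor half-site AGGTCA, on either strand, was in 12.5% of the windows of genes higher in both lines, 16.0% of those of genes lower in both and 12.0% of those of all sortable genes. A direct repeat of that half-site with any 4 bases between was in none of the windows of sortable genes. A match is a stretch of letters, and no match says only that these letters are not in the window.

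Within the list the levels differed widely. Bnip3, a mitophagy receptor, went from 225 to 893 RPM in C17.2a and from 226 to 853 RPM in C17.2b at 24 h. Ankrd37, a hypoxia-induced ankyrin protein, went from 10.1 to 69.7 RPM and from 16.7 to 73.3 RPM. Fam162a, a mitochondrial HIF target, went from 7.55 to 38.1 RPM and from 5.15 to 26.5 RPM. In each of the 3 the T3 values of both lines lay above both untreated values, which sorting by the 24 h ratios makes likely. Ero1l, the oxidase that drives disulfide formation, had log2 ratios of 0.80, 1.59 and 2.12 in C17.2a and of 0.76, 1.62 and 2.36 in C17.2b at 6, 12 and 24 h, and rose at 6 and 12 h by 1.18 ± 0.15 (limma adjusted p = 0.000334). Hif1a had log2 ratios of 1.15 in C17.2a and 0.71 in C17.2b. Vegfa, the angiogenic growth factor, was 8.12-fold higher in C17.2b (12.5 to 103 RPM) and 1.37-fold in C17.2a (21.3 to 29.2 RPM). Untreated Vegfa in C17.2a had been 7.11 and 7.2 RPM at 6 and 12 h.

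Of 23 glycolysis and glucose uptake genes, 3 were past 2-fold higher in both lines: Pfkfb2, Pfkfb3 and Slc2a1. The lists overlap, as Pfkfb3 and Slc2a1 are also in the hypoxia list and Slc2a1 in that of T3-responsive genes. A further 8 were higher in C17.2b alone and 2 in C17.2a alone, 2 were lower in C17.2a alone and 1 moved in opposite directions. The shares of all genes were 1.34%, 2.61%, 4.98%, 17.5% and 0.805%. Under median-ratio scaling 7 were past 2-fold higher in C17.2a and 9 in C17.2b, against 5 and 12 as deposited, and the difference between lines was not tested. Their median log2 ratio was 0.53 in C17.2a and 1.07 in C17.2b, and 13 rose and 1 fell at 6 and 12 h in limma (7.89% and 5.56% of all genes). Eno1 (enolase) had 6505 and 9960 RPM in C17.2a and 6407 and 12097 RPM in C17.2b, under 2-fold in both. Aldoa (aldolase) was 5.85-fold higher in C17.2b (384 to 2250 RPM) and 1.76-fold lower in C17.2a (1378 to 783 RPM).

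Classical T3-responsive genes fell into several classes. Of 19 with enough tags, 4 were past 2-fold higher in both lines (Hr, Me1, Slc2a1 and Stat5a), 3 in C17.2b alone and 2 in C17.2a alone, and 2 were lower in C17.2a alone, with shares of 1.34%, 2.61%, 4.98% and 17.5% among all genes. With ratios centred within 20 bins of transcript GC content, 7 were past 2-fold higher in C17.2a and 0 lower, against 6 and 2 as deposited. The median log2 ratios were then 0.70 in C17.2a and 0.53 in C17.2b, against 0.10 and 0.64 as deposited. Of 24 tested at 6 and 12 h, 15 rose and 2 fell (7.89% and 5.56% of all genes). Me1, the malic enzyme that supplies NADPH for lipid synthesis, went from 176 to 601 RPM in C17.2a and from 124 to 504 RPM in C17.2b at 24 h. Its log2 ratio had been 0.31 at 6 h in each line. Among 19 genes of fatty acid and triglyceride synthesis, Lpin3, Me1 and Scd1 were past 2-fold higher in both lines (1.34% of all genes) and 2 were lower in C17.2a alone (17.5%). Lpin3, a phosphatidate phosphatase, went from 6.63 to 20.04 RPM in C17.2a and from 3.12 to 69.0 RPM in C17.2b. Scd1, which makes monounsaturated fatty acids, went from 183 to 422 RPM and from 184 to 461 RPM, and it rose at 6 and 12 h by 1.33 ± 0.10 (limma adjusted p = 1.33e-05). Stat5a and Socs2 belong to cytokine signalling, Stat5a as a transcription factor and Socs2 as a feedback inhibitor of its pathway. Stat5a went from 2.76 to 6.44 RPM in C17.2a and from 2.03 to 7.64 RPM in C17.2b. Socs2, in no list and named after its values were seen, went from 24.5 to 141 RPM and from 16.4 to 147 RPM, and it rose at 6 and 12 h by 3.36 ± 0.15 (limma adjusted p = 2.16e-07).

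Known T3 targets were also among the genes that passed in C17.2b alone. Klf9, a transcription factor induced by T3 in neural cells, had 7.25 and 5.25 RPM in C17.2a and 12.2 and 31.1 RPM in C17.2b at 24 h. At 6 and 12 h it was higher with T3 in all 4 pairs, by 1.51 ± 0.12 on the log2 scale (limma adjusted p = 2.01e-05). Aqp1, a water channel, had 8.88 and 7.87 RPM in C17.2a and 3.39 and 62.9 RPM in C17.2b at 24 h. The T3 libraries of C17.2a had held 87.7 RPM of it at 6 h and 75.1 RPM at 12 h, against 3.32 and 4.80 RPM untreated. The difference between 24 h and the earlier times was -1.07 ± 0.44 for Klf9 and -2.55 ± 0.91 for Aqp1, with limma adjusted p of 0.50 for both, and did not pass. That fit pools the 2 lines, so it cannot decide whether the response changed in C17.2a alone.

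Among the 76 genes lower in both lines, Cdsn, a desmosomal protein of skin, went from 62.1 to 8.23 RPM in C17.2a and from 36.0 to 5.47 RPM in C17.2b. Kctd12, a subunit of GABA-B receptors, went from 38.3 to 8.23 RPM and from 105 to 19.8 RPM. Serpine2, a secreted protease inhibitor, went from 137 to 27.7 RPM and from 228 to 57.5 RPM. In all 3 both T3 values lay below both untreated values, which sorting by the 24 h ratios makes likely. Pmp2, a myelin lipid-binding protein, was 9.23-fold lower in C17.2a and 5.08-fold lower in C17.2b. Chl1, a neural adhesion molecule, was 5.19-fold and 4.12-fold lower, Atp10b, a lipid flippase, 4.10-fold and 8.21-fold lower, and Myo5b, a vesicle motor, 11.2-fold and 4.65-fold lower. At 6 and 12 h Cdsn fell by 1.55 ± 0.20, Kctd12 fell by 2.23 ± 0.11 and Serpine2 fell by 0.81 ± 0.09 on the log2 scale (limma adjusted p = 0.000396, 5.48e-07 and 0.00019).

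Listed genes among the 76 were few. Ccnd1, cyclin D1 of the G1 phase, went from 275 to 104 RPM in C17.2a and from 299 to 90.3 RPM in C17.2b. Jun, a component of AP-1, went from 219 to 106 RPM and from 374 to 130 RPM, with log2 ratios between -1.04 and -1.52 in all 6 pairs. The matrix genes Tnc (tenascin C) and Postn (periostin) had log2 ratios of -2.30 and -1.83 in C17.2a and of -1.51 and -1.18 in C17.2b. Mcam, an adhesion molecule in no list, was named after its values were seen: it went from 134 to 24.9 RPM and from 173 to 48.9 RPM, and it fell at 6 and 12 h by 1.45 ± 0.15 on the log2 scale (limma adjusted p = 8.1e-05). Fos, the partner of Jun in AP-1, was higher in both lines at 24 h, at 16.8 and 75.3 RPM in C17.2a and 29.0 and 92.8 RPM in C17.2b, and did not pass at 6 and 12 h (0.57 ± 0.22, limma adjusted p = 0.12).

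Several of the lowest genes did not pass at 6 and 12 h. Clic1, an intracellular chloride channel, had 109 and 8.59 RPM in C17.2a and 78.8 and 13.5 RPM in C17.2b at 24 h, and a log2 fold change of 0.04 ± 0.17 at 6 and 12 h (limma adjusted p = 0.92). Ssr2, a subunit of the translocon-associated complex, had 136 and 2.74 RPM in C17.2a and 80.3 and 19.5 RPM in C17.2b, and 0.07 ± 0.12 before (0.78). Kirrel3, Art3 and Faf2 did not pass before 24 h either (limma adjusted p = 0.35, 0.32 and 0.37), although Art3 had log2 ratios of -1.15 and -1.38 at 6 h in C17.2a and C17.2b and Faf2 one of 1.07 at 12 h in C17.2a. In Clic1, Ssr2 and Faf2 both untreated 24 h libraries were above all 8 libraries of 6 and 12 h.

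Libraries of 6 and 12 h gave an independent test of the sorting. Over their 4 pairs 1370 of 10187 genes passed in limma, 804 higher (7.89%) and 566 lower (5.56%), or 662 higher and 877 lower when each library was centred within 20 bins of GC. Of the 120 genes higher in both lines at 24 h, 119 were tested and 92 rose, none fell, with a median log2 fold change of 1.07. Of the 76 lower in both, 53 fell and none rose, with a median of -0.79. Of the 446 higher in C17.2a alone, 61 rose and 4 fell, 13.7% and 0.897%, against 7.89% and 5.56% of all genes (median 0.09). Of 1560 tested genes lower in C17.2a alone, 109 fell and 76 rose, 6.99% and 4.87%, shares near those of all genes, with a median of 0.03. Of 233 tested genes higher in C17.2b alone, 125 rose and 3 fell (median 0.57), and of 81 lower in C17.2b alone, 34 fell and 2 rose (median -0.34).

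**Figure D3:**
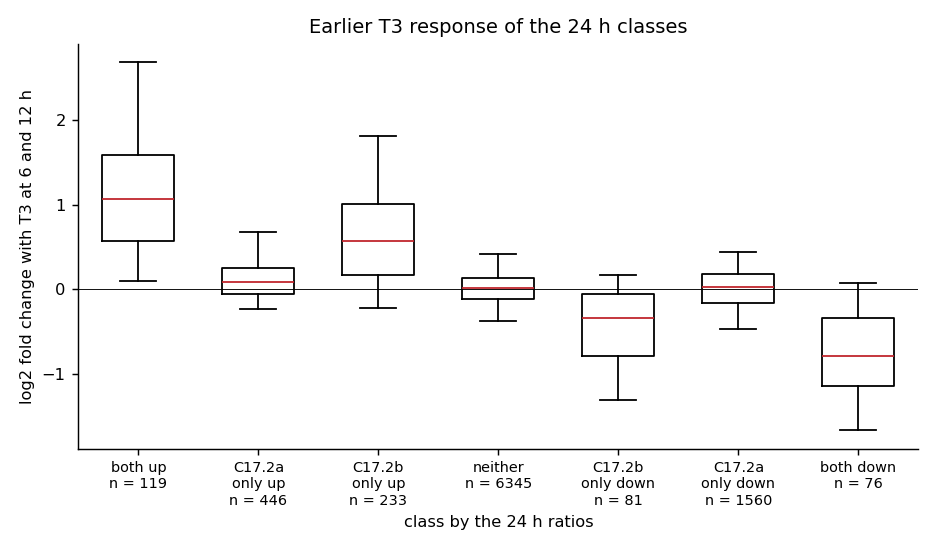
Log2 fold change with T3 over the 4 pairs of 6 and 12 h (vertical axis) for genes sorted by their 24 h ratios (horizontal axis, n tested below each name), boxes from the lower to the upper quartile with the median in red and whiskers from the 5th to the 95th percentile. The classes of both lines and of C17.2b alone are displaced in the direction of their 24 h ratio. The 2 classes of C17.2a alone have medians of 0.09 (higher) and 0.03 (lower).

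The classes were also counted pair by pair. Of the 120 genes higher in both lines, 101 were above 1 in ratio in all 4 earlier pairs, 40 passed 2-fold in all 4 and 24 in none. Of the 76 lower in both, 54 were below 1 in all 4, 15 passed 2-fold in all 4 and 25 in none. Of the 1569 lower in C17.2a alone, 251 were below 1 in all 4 and 1460 passed 2-fold in none. Of the 446 higher in C17.2a alone, 124 were above 1 in all 4. In C17.2b alone 137 of the 234 higher were above 1 in all 4, and 40 of the 82 lower were below 1. The shares over all sortable genes were not computed, so these counts lack a background. Median log2 ratios of the genes higher in both lines were 0.92, 1.22 and 1.56 at 6, 12 and 24 h in C17.2a and 0.96, 1.35 and 1.68 in C17.2b.

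The genes that passed at 6 and 12 h were then followed to 24 h in each line. Of 732 sortable genes that had risen at 6 and 12 h, 698 (95.4%) were above 1 in ratio in the C17.2b 24 h pair and 455 (62.2%) in the C17.2a pair, against 57.8% and 46.6% of all genes. In C17.2a, 153 of them were past 2-fold higher and 100 past 2-fold lower, and in C17.2b 241 and 2. Of 509 that had fallen, 449 (88.2%) were below 1 in C17.2b and 353 (69.4%) in C17.2a. Past 2-fold lower were 163 of them (32.0%) in C17.2a and 87 (17.1%) in C17.2b, with 4 past 2-fold higher in each. The difference between lines was not tested.

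The 2015 genes past 2-fold in C17.2a alone separated the 24 h libraries by line and treatment in an uneven way. In the 1569 that were lower with T3, the median log2 change from 12 h to 24 h was 1.44 in untreated C17.2a, 0.96 in untreated C17.2b and 1.07 in C17.2b with T3, and -0.45 in C17.2a with T3. Over all sortable genes these medians were 0.62, 0.49, 0.50 and 0.36. Among the 1569 genes the untreated C17.2a 24 h library was highest of 12 in 974. The C17.2a T3 24 h library was lowest in 794. Over all 8949 sortable genes these counts were 2267 and 1272. The class was chosen by the ratio of these 2 libraries, which favours such extremes and also affects their changes from 12 h. In the 446 that were higher with T3, the C17.2a T3 24 h library was highest of 12 in 320. The untreated C17.2a 24 h library was lowest in 187. The counts over all sortable genes were 2141 and 821, and the same choice by ratio applies. In the 446 the median changes from 12 h were 0.73 (T3) and -0.44 (untreated) in C17.2a, and -0.03 (T3) and 0.02 (untreated) in C17.2b.

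**Figure D4:**
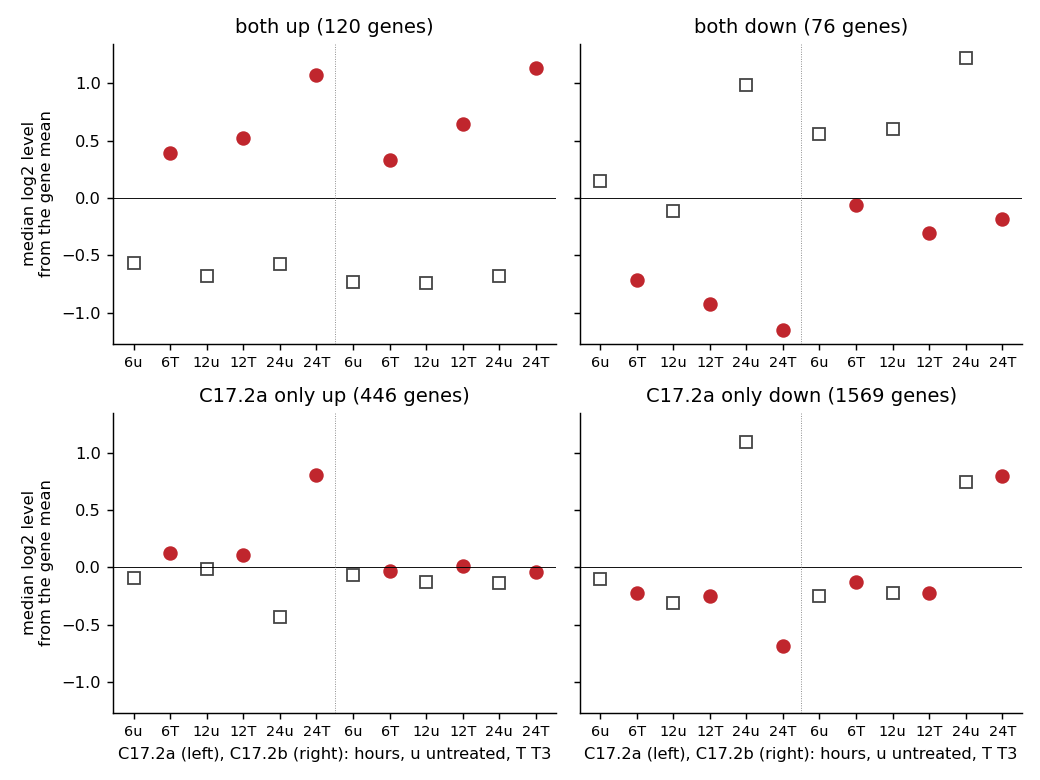
Median log2 level relative to each gene's mean over the 12 libraries (vertical axis) in each library (horizontal axis, hours with u for untreated as open squares and T for T3 as filled circles, C17.2a left and C17.2b right of the dotted line) for 4 classes of genes. Genes of both lines separate by treatment at every time, and those lower in C17.2a alone are high in 3 of the 4 libraries of 24 h and low in the C17.2a T3 library.

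GC content moved with the C17.2a ratios. Median transcript GC was 54.0% in the genes lower in C17.2a alone, 46.2% in those higher in C17.2a alone, 50.4% in those higher and 51.0% in those lower in both lines, and 49.4% in all sortable genes, of which 99.3% had a transcript. From the lowest to the highest quintile of GC the median log2 ratio of the C17.2a 24 h pair ran 0.26, 0.14, -0.03, -0.31 and -0.67, and the share of genes past 2-fold lower from 5.57% to 39.2%. In the C17.2b 24 h pair the medians ran from 0.02 to 0.13. Of the change from 12 h to 24 h, the median in the highest quintile was 1.11 in untreated C17.2a, 0.81 and 0.82 in C17.2b, and 0.19 in C17.2a with T3. When each pair's ratios were centred within 20 bins of GC, 1828 genes passed in C17.2a alone (546 higher, 1282 lower), of which 1435 were in that class before, and 210 passed in both lines, of which 169 were.

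**Figure D5:**
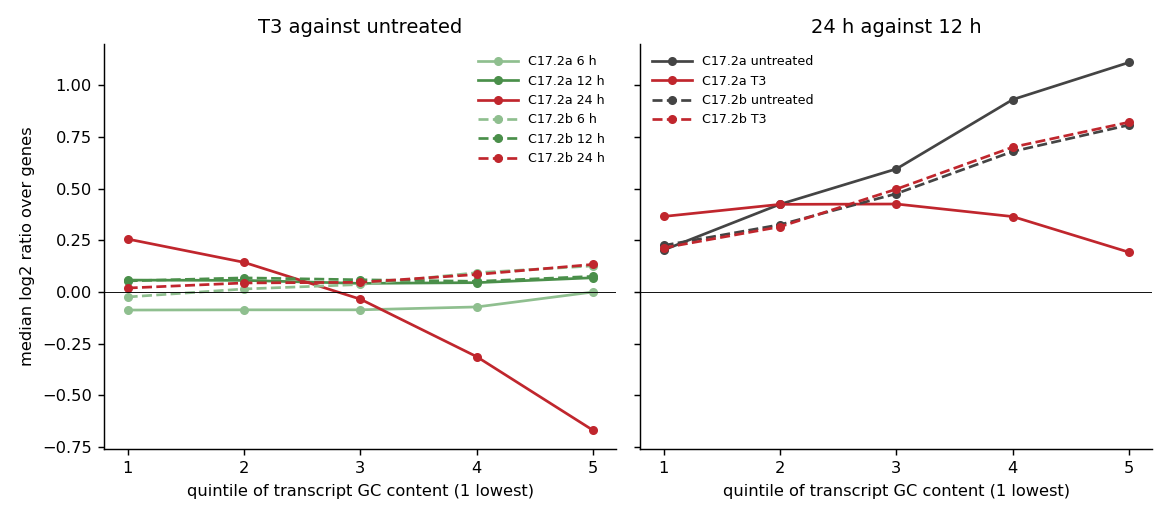
Median log2 ratio over genes (vertical axis) by quintile of transcript GC content (horizontal axis), for T3 against untreated in each pair (left) and for 24 h against 12 h in each line and treatment (right), C17.2a as solid and C17.2b as dashed lines. The C17.2a 24 h line falls with GC on the left while the other 5 pairs stay near 0, and on the right the C17.2a T3 line falls at high GC while the other 3 rise.

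Scaling also bears on the split between higher and lower. Median-ratio scaling shifted the C17.2a 24 h log2 ratios by 0.21 and those of C17.2b by -0.09. Under it 850 genes were higher and 1239 lower in C17.2a alone, 184 and 105 in C17.2b alone and 127 and 79 in both lines.

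The 10 genes with the largest ratios among those lower in C17.2a alone, chosen by that ratio, had few or no tags in the C17.2a T3 24 h library. Prrc2a, a large RNA-associated protein, went from 128 to 1.07 RPM in C17.2a and from 101 to 112 RPM in C17.2b. Acin1, a splicing-associated protein, had 51.4 RPM in untreated C17.2a and is listed as N/A with T3, and had 61.2 and 69.0 RPM in C17.2b, and Ogfr, the opioid growth factor receptor, had 17.7 RPM and N/A. That library had an N/A for 875 symbols, 13 of them with over 5 RPM elsewhere, so no fold is given for these. The other 7 were gamma protocadherins, adhesion proteins of neurons that share their last exons. Pcdhga2, Pcdhga10, Pcdhga11 and Pcdhga12 had identical values in every library, 24.1 and 0.14 RPM in C17.2a and 23.7 and 19.7 RPM in C17.2b, so their tags cannot be told apart, and they fell at 6 and 12 h by 0.46 ± 0.12 on the log2 scale (limma adjusted p = 0.03). The 0.14 RPM is below the 0.358 RPM that 3 tags give there, and no fold is given. Of the 1569 genes, 29 shared their values with another symbol.

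Several of the named genes higher in C17.2a alone had their lowest value in its untreated 24 h library. Ankrd43 (Sowaha) had 1.94 and 17.5 RPM in C17.2a and 12.1 and 17.8 RPM in C17.2b. Stx5a, a Golgi SNARE, had 6.53 and 45.1 RPM in C17.2a and 36.9 and 36.3 RPM in C17.2b. Leprel4 (P3h4), a collagen-modifying protein, had 6.23 and 40.9 RPM against 20.9 and 27.1 RPM. In these 3 the untreated C17.2a value was the lowest of 12, which their choice by the C17.2a ratio favours. Gad2, Hyal1 and Camk4 had similar values in each library although they are unrelated genes. Lrrc41, Klra22, Fam166a, Gad2, Bbx, Hyal1 and Camk4 were 4.52-fold to 6.67-fold higher in C17.2a and between 1.33-fold lower and 1.48-fold higher in C17.2b. None of the 10 passed at 6 and 12 h in limma (adjusted p 0.11 to 0.85).

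Matrix and cytoskeleton genes were lower in the C17.2a pair at 24 h than in the C17.2b pair by their medians, a difference that was not tested. Of 32 extracellular matrix genes 11 were past 2-fold lower in C17.2a alone, against 17.5% of all genes, 2 were lower in both lines (0.849% of all genes) and none was higher in C17.2a as deposited (1 was under median-ratio scaling and 2 were after centring by GC). The median log2 ratio was -0.84 in C17.2a and 0.13 in C17.2b, and -0.55 in C17.2a after centring by GC. Mmp14, a membrane-bound collagenase, went from 153 to 6.20 RPM in C17.2a and from 86.5 to 98.3 RPM in C17.2b. Sparc, a secreted collagen-binding protein, went from 2754 to 950 RPM and from 1965 to 2016 RPM. Of 24 serum response factor and cytoskeleton genes 9 were lower in C17.2a alone (17.5% of all genes), with medians of -0.77 and -0.07. Past 2-fold lower in C17.2a were 6 under median-ratio scaling and 6 after centring by GC, with C17.2a medians of -0.56 and -0.53. Actb (beta actin) went from 2408 to 1117 RPM in C17.2a and from 2416 to 2048 RPM in C17.2b. Its C17.2a T3 value lay just above the 775 to 1109 RPM of the 8 earlier libraries, and the other 3 libraries of 24 h lay far above them. At 6 and 12 h 11 of 25 tested genes of this list fell and none rose, against 5.56% and 7.89% of all genes.

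Of 76 cytosolic ribosomal protein genes 20 were past 2-fold lower in C17.2a alone, against 17.5% of all genes, and none higher, with medians of -0.42 in C17.2a and -0.20 in C17.2b. Under median-ratio scaling the medians were -0.21 and -0.29, with 10 genes past 2-fold lower and 2 past 2-fold higher in C17.2a, and after centring by GC 11 and 3 were. Ribosomal protein genes have near-identical copies in the genome, so their values are uncertain. Rpl7a went from 1579 to 261.6 RPM in C17.2a and from 1632 to 1079 RPM in C17.2b, after 213 to 464 RPM at 6 and 12 h. Of 31 autophagy and lysosome genes 8 were lower in C17.2a alone (17.5% of all genes), and those past 2-fold lower in C17.2a numbered 9 in all and 6 after centring by GC. Lamp1, the lysosomal membrane protein, went from 461 to 63.7 RPM in C17.2a and from 316 to 423 RPM in C17.2b. In Rpl7a and Lamp1 the C17.2a T3 24 h value was near those of the earlier libraries, and the other 3 libraries of 24 h were high.

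Cell cycle genes had opposite medians in the 2 lines. Of 37 S phase and DNA replication genes, 8 were past 2-fold higher in C17.2a alone, 3 lower in C17.2a alone and 1 lower in C17.2b alone, against 4.98%, 17.5% and 0.916% of all genes, with median log2 ratios of 0.42 in C17.2a and -0.22 in C17.2b. Of 38 G2 and mitosis genes 7 were higher and 2 lower in C17.2a alone and 3 lower in C17.2b alone, beside the same shares, with medians of 0.08 and -0.48. The signs were the same under median-ratio scaling and after centring by GC. Pcna, the clamp of DNA polymerases, went from 201 to 610 RPM in C17.2a and from 295 to 274 RPM in C17.2b. Cdk1, the mitotic kinase, went from 274 to 776 RPM in C17.2a and from 454 to 323 RPM in C17.2b. In both genes the untreated C17.2a library was the lowest of the 4. At 6 and 12 h 1 of 40 tested S phase genes rose and 1 fell, and of 39 G2 genes none rose and 2 fell, against 7.89% and 5.56% of all genes.

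The C17.2b pair had its own large ratios. Rpl5 was 13.6-fold lower with T3 in C17.2b (2675 to 196 RPM) and 1.41-fold lower in C17.2a (3559 to 2519 RPM), and no other library held under 787 RPM of it. Pik3c3, a lipid kinase of autophagy, had 0.54 RPM in untreated C17.2b and 12.8 RPM with T3, and Sh2b3, a signalling adaptor, had 0.95 and 8.83 RPM. In both the untreated C17.2b 24 h library was the lowest of 12, which their choice by the C17.2b ratio favours. Neither passed at 6 and 12 h in limma (adjusted p = 0.98 and 0.47). Rgs16, a regulator of G protein signalling, was 8.25-fold lower in C17.2b (265 to 32.0 RPM) and 1.45-fold lower in C17.2a (118 to 81.2 RPM), and it fell at 6 and 12 h by 2.08 ± 0.24 (0.000202). Zswim7, Arhgap1, Nav2 and Rufy1 were the remaining named genes, and of these Nav2 fell at 6 and 12 h (-0.65 ± 0.09, 0.000587).

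The limit of 2-fold cut through a continuum. Just inside it in both lines were Rnf19a (log2 ratios 1.002 in C17.2a and 1.35 in C17.2b), Trim2 (-1.65 and -1.01) and Snx24 (1.01 and 1.01). Just outside were Plxnb3 (-5.37 and -0.99), Fam185a (1.14 and 0.99) and Ccdc34 (-1.23 and -0.99), all counted to C17.2a alone.

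Fitted over all genes with the spread of the 6 pairs, 112 of 10577 genes (1.06%) passed at 24 h in limma: 72 were higher (0.681%) and 40 lower (0.378%), and 1678 had an unadjusted p under 0.05. Leaving out the 24 h pair of C17.2a gave 588 genes and leaving out that of C17.2b gave 4305, where the lone pair is assumed to vary like the others. Leaving out a 6 h pair gave 3 genes (C17.2a) or 0 (C17.2b, 1082 at an unadjusted p under 0.05), and leaving out either 12 h pair 26. The smallest p belonged to Epas1, Kcna1, Cxcr7, Hr and Ero1l.

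No gene was shown to respond differently at 24 h than at 6 and 12 h in a fit that pooled the 2 lines. The test of that difference passed for 0 of 10577 genes in limma (0%), with 1006 at an unadjusted p under 0.05. Without the C17.2a 24 h pair 76 passed, and without the C17.2b 24 h pair 3677. The smallest p were those of Nol6, a ribosome biogenesis factor, Clic1, Acta2, Cript and Serpine2. Nol6 went from 19.3 to 95.8 RPM in C17.2a and from 15.7 to 80.7 RPM in C17.2b, and its difference from the earlier times was 2.08 ± 0.24 (adjusted p = 0.17). Acta2, smooth muscle actin, went from 42.7 to 115 RPM and from 47.1 to 111 RPM, after log2 ratios of -0.55 to -0.03 at 6 and 12 h (1.60 ± 0.22, adjusted p = 0.27). Clic1 and Cript, a postsynaptic scaffold-binding protein, had differences of -3.03 ± 0.40 and -2.28 ± 0.34 (adjusted p = 0.27 and 0.30).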

How the data were processed

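Sequence tags of polyA RNA were counted in 12 libraries, 1 for each line, treatment and time. The authors deposited 1 table of RPM (library-scaled tags) for 12774 symbols, a unit read from the columns' equal sums. The submitters' processing notes name the build mm9, and the aligner and the tag rule are not given in the sources used here. Values under 2 RPM were whole multiples of 1 tag in 91.6% to 95.3% of cases per library (tolerance 0.0055 RPM), which did not recover all tags, and a count test was therefore not used. N/A was read as 0.

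The 24 h ratios took a prior of 2 tags at the mean depth, a minimum of 50 tags in each pair and a limit of 2-fold. Tests used log2(RPM + 1), limma 3.58.1 in R 4.3.3 (lmFit, eBayes with trend), the pair of line and time as a block, a filter of 1 RPM in 3 or more libraries, and Benjamini-Hochberg adjustment at 0.05. A fold change on this scale understates that of low genes. The fits at 24 h and at 6 and 12 h had 3 residual degrees of freedom and the test of their difference 4. Separate cultures are not mentioned in the labels, so a p-value here reflects only how these pairs vary, which may be technical. The procedures were tested on simulated data. GC content came from GENCODE M21 transcripts of GRCm38.

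Named genes were the 12 highest and 12 lowest in both lines by the smaller ratio, the 10 and 10 largest of C17.2a alone and 5 and 5 of C17.2b alone (under 1.5-fold in the other line), the 5 smallest p of the 24 h response and of its difference from the earlier times, Thra, Thrb, Klf9, Hr, Epas1 and Aqp1, and, from each described list, at most 4 members by tags and 4 by ratio. Members of a list that passed in both lines were added after their values were seen. The classes and the 40 gene lists were chosen with earlier results of these data known. The alternatives were other tag minima, priors, fold limits, pseudocounts, filters and scalings, and leaving out each pair. Those with GC bins and with the C17.2b ratio alone (over the same genes) were chosen after seeing the data. Some genes that the rules pick are not reported here.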

Additional observations from a re-analysis of the deposited data

Results flagged for a closer look

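Past 2-fold in opposite directions in the 2 lines at 24 h were 72 genes, 65 lower in C17.2a and higher in C17.2b and 7 the reverse (0.805% of the sortable genes). They were flagged because the 2 lines moved apart under the same treatment, with 1 pair per line, and the difference was not tested. Of all sortable genes 19.1% passed 2-fold lower in C17.2a and 4.68% higher in C17.2b. Unrelated pairs with such shares would also hold opposite genes, and their number was not computed, so the count of 72 is not shown to be unusual. Median transcript GC of the 72 was 56.9%, against 49.4% in all sortable genes. Of 70 tested at 6 and 12 h, 24 rose and 1 fell in limma, against 7.89% and 5.56% of all genes.

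The 5 described here were chosen after their values were seen. Tnfrsf12a, the receptor of the cytokine TWEAK, had 46.0 and 1.79 RPM in C17.2a (untreated, then T3) and 2.58 and 33.9 RPM in C17.2b. Its values at 6 and 12 h were 2.40 to 6.76 RPM. Fam89b had 72.6 and 5.84 RPM in C17.2a and 5.43 and 66.4 RPM in C17.2b. Pcsk7, a proprotein convertase, had 17.7 and 2.27 RPM and then 1.63 and 18.5 RPM, and Cpne2, a calcium-dependent lipid-binding protein, 12.8 and 2.03 RPM and then 3.39 and 18.1 RPM. In these 4 genes and in Adamtsl4 the untreated C17.2a library and the C17.2b T3 library were the high ones at 24 h. Choosing genes by opposite 24 h ratios in the 2 lines makes this likely. Adamtsl4 had 16.5 and 2.86 RPM in C17.2a and 2.44 and 15.7 RPM in C17.2b, and in C17.2b it was also higher with T3 at 6 h (log2 ratio 2.01) and 12 h (2.35).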

How the results depend on the processing

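The counts of genes by class moved with the limits. With a minimum of 200 tags, 118 genes passed in both lines, 1242 in C17.2a alone and 178 in C17.2b alone. With a limit of 1.5-fold the counts were 527, 3457 and 603, and with 3-fold 68, 939 and 134. With under 1.5-fold asked of C17.2a, 195 genes passed in C17.2b alone. Of the same 8949 genes, 584 passed 2-fold in the C17.2b pair when the C17.2a ratio was not asked for. With 20 tags, a prior of 10 tags, a pseudocount of 1 RPM, median-ratio scaling, symbols with N/A left out or GC bins, the total of each class, both directions pooled, stayed within 1.5 times its count, while the genes higher in C17.2a alone went from 446 to 850 under median-ratio scaling.

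The limma count at 24 h was 265 with line and time as additive terms, and 0 to 4305 when each pair was left out in turn. The count at 6 and 12 h was 899 to 1239 and that of the difference 0 to 3677 when pairs were left out. The causes were not tested. The 145 genes of both lines that passed the same way at 6 and 12 h numbered 129 to 139 when a pair was left out. No value of a named gene changed sign where it was called, while the split of calls at 6 and 12 h turned from 804 higher and 566 lower to 662 and 877 with GC bins. Of 654 values at 6 and 12 h for named genes under alternatives, 30 lost the threshold, and of 480 named 24 h ratios 47 moved. The labels give no replicate numbers to pair libraries by. The limma fits paired T3 with untreated libraries through the block of line and time, except those with line and time as additive terms. Genes under 50 tags in a pair were not sorted, which left out 3825 symbols.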

Other observations

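Of 12 circadian clock genes with enough tags, 3 were past 2-fold higher in C17.2b alone, 1 higher in C17.2a alone, 1 lower in C17.2b alone and 1 moved in opposite directions, with shares of 2.61%, 4.98%, 0.916% and 0.805% among all sortable genes. Of 14 tested at the earlier times 7 rose and 2 fell, against 7.89% and 5.56% of all genes. Bhlhe40, a clock repressor, went from 3.80 to 26.4 RPM in C17.2b and from 12.0 to 16.5 RPM in C17.2a at 24 h, after a rise of 1.71 ± 0.14 at 6 and 12 h (limma adjusted p = 1.72e-05). Tcfeb (Tfeb), the regulator of lysosome genes, had risen by 1.75 ± 0.13 at 6 and 12 h (1.05e-05). At 24 h it had 3.39 and 19.2 RPM in C17.2b and 6.94 and 2.86 RPM in C17.2a.

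Of 18 p53 targets 4 were past 2-fold higher in C17.2b alone, against 2.61% of all sortable genes. In C17.2a none passed as deposited, 1 was higher under median-ratio scaling and 3 were higher with GC bins. Of 40 translation factors 6 and of 27 ATF4 and amino acid stress genes 7 were lower in C17.2a alone, against 17.5% of all sortable genes.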
